A study of Rattus norvegicus with 15 samples.

Results

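The genes described here build fatty acids and triglycerides in the liver. A list of 32 rat genes covers the transcriptional regulators, the supply of carbon, the synthesis, elongation and desaturation of fatty acid chains, their activation to acyl-CoA, the assembly of glycerolipids, their breakdown, and loading onto lipoprotein. A gene counted as found where the array's own gene name, an older alias included, named it, and its brightest probe stood for it. By that rule 31 of the 32 genes were found among 36554 features (1 probe per gene, and unnamed probes kept apart), and all 31 were among the 20316 features bright enough to be tested. Mogat1, a monoacylglycerol acyltransferase, was the one not found by name. A probe whose description names it was well above background on 1 of 15 arrays, with a mean signal of -4.81 in fipronil rats and -4.63 in vehicle rats, and was not tested.

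The study measured messenger RNA in the liver (fragments of the large lobe) of 15 female Wistar Crl:WI rats aged 2 to 3 months, with 1 one-colour Agilent array per rat. The 8 fipronil rats received fipronil, a phenylpyrazole insecticide, by feeding needle at 3 mg/kg each day for 14 days. The 7 vehicle rats received the carrier alone, 0.5% methylcellulose with 0.01% Tween 80 in water, over the same time. No genotype is given for either group, both were fed the same chow without restriction, and 1 dose and 1 time point were studied. Signal is the log2 of spot intensity minus the log2 of that array's own 75th percentile, so a difference of 1 is 2-fold. Signals of different genes come from different probes and are not compared with each other.

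In the liver, insulin and glucose raise lipid synthesis through the transcription factors SREBP-1c, encoded by Srebf1, and ChREBP, encoded by Mlxipl. Citrate leaves the mitochondrion, is split to acetyl-CoA, carboxylated to malonyl-CoA and built into palmitate by fatty acid synthase. Elongases and desaturases then modify the chain, and acyltransferases join it to glycerol to make triglyceride, which is stored in droplets or secreted in very low density lipoprotein (VLDL).

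The arrays themselves differed between the groups. The 75th percentile of intensity averaged 209.9 ± 25.8 in fipronil rats and 171.5 ± 33.3 in vehicle rats (SD, n = 8 and 7, two-sided exact permutation p = 0.0196). The 15 arrays lay on 4 slides, and each slide held rats of both groups. On slide 3 vehicle rat 5 was the only vehicle rat, so each difference given for slide 3 is taken against that rat alone. All 8 hepatocyte markers were above background on every array, and their mean signal ranged from 6.34 to 6.74 in fipronil rats and from 6.61 to 7.17 in vehicle rats. Alb, Ttr and Serpina1, 3 of the 8, were lower at an unadjusted p under 0.05, and none passed after adjustment. Their differences were -0.31, -0.31 and -0.32. Apoa1, Tat, Cps1, Hnf4a and Tf had -0.09, -0.14, -0.02, 0.03 and -0.26. Mean signals of the 3 lay at 8.13 to 8.54 in fipronil rats and 8.44 to 8.86 in vehicle rats. Fabp1, a gene saturated on all 15 arrays, had 8.22 and 8.55. Saturation of the marker probes was not examined, and its part in these differences was not tested. The mean of 6 endothelial markers ranged from -0.46 to 0.33 in fipronil rats and from -0.51 to -0.11 in vehicle rats, with Pecam1 and Tek too dim to be tested. Of the 4 tested, Stab2, Lyve1 and Kdr were higher at an unadjusted p under 0.05, and Vwf had a difference of -0.24. Epcam of 4 tested cholangiocyte markers (0.51) and Reln of 6 tested stellate markers (0.43) were also higher at that level, and none of these passed after adjustment. The other tested cholangiocyte markers, Krt7, Krt19 and Cftr, had -0.23, -0.14 and -0.08. The other tested stellate markers, Col1a1, Col1a2, Col3a1, Des and Lrat, had -0.13, -0.07, 0.04, -0.32 and 0.12. All 7 Kupffer cell and macrophage markers had differences above 0 (0.05 to 0.44), none at an unadjusted p under 0.05. Of 8 adipocyte markers, Adipoq, Lep, Retn and Plin1 were above background on no array, and Cfd and Lipe on every array. Fabp4 was above background on 4 fipronil and 4 vehicle arrays, and Pparg on 6 and 2. None of these 4 tested adipocyte markers had an unadjusted p under 0.05. The part that brightness or these cell types had in the values below was not tested. With array brightness as a covariate in the fit, 0 of the 31 genes passed the threshold, as in the fit without it. In pieces of whole liver, fewer cells of a type and less RNA per cell cannot be told apart.

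Fipronil rats and vehicle rats did not differ beyond the threshold in any of the 31 lipid synthesis genes. In the limma fit across all features, 0 of 31 genes had a Benjamini-Hochberg adjusted p under 0.05, and 175 of the 20316 features (0.861%) did, 0.546% on the higher side and 0.315% on the lower. At an unadjusted p under 0.05 there were 4 genes of 31 (12.9%), against 17.5% of all features. Lipc was the 1 on the higher side (6.16% of all features), and Elovl5, Pnpla3 and Fads2 were the 3 on the lower side (11.3%). The estimated difference was below 0 in 19 genes and above 0 in 12, and 55.7% of all features were below 0. Its median was -0.06 over the 31 genes and -0.03 over all features. When arrays were scaled to their median in place of the 75th percentile, 15 of the 31 differences were below 0 and their median was 0.00071, while the median of all features was 0.04. The signals of fipronil and vehicle rats overlapped for each of the 31 genes; without overlap were 0.379% of features with fipronil higher and 0.241% with fipronil lower.

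The intervals give the differences that the data allow. Acly and Fasn, saturated on some arrays, are set apart here because a saturated spot gives only a bound. For 23 of the other 29 genes the 95% interval lay within a 1.5-fold change in either direction, and for 25 within 2-fold. The 4 genes with wider intervals were Elovl6, Scd, Scd2 and Pnpla3. Dgat1, which makes triglyceride from diacylglycerol, varied least, with an SD of 0.10 within groups, and only 1.94% of tested features varied as little or less. Its difference was -0.06 (95% interval -0.21 to 0.10).

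**Figure D1:**
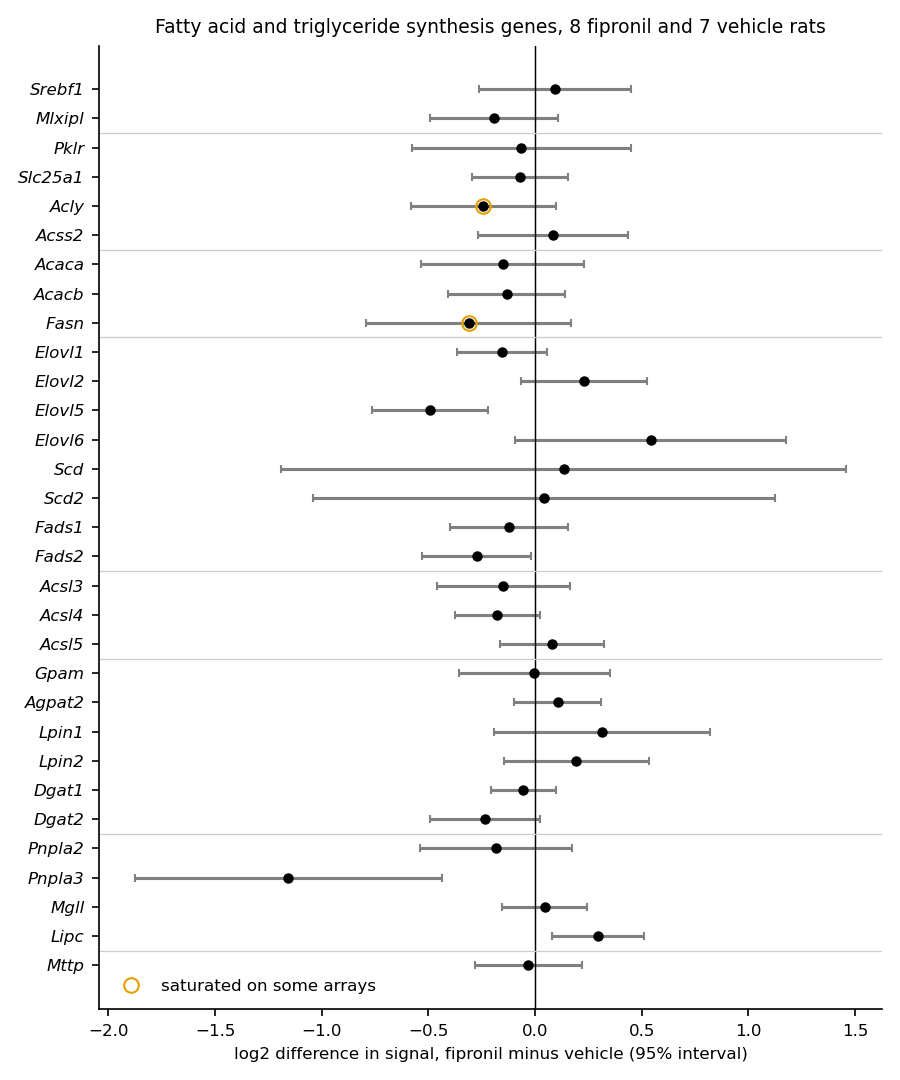
The log2 difference in signal, fipronil minus vehicle, for the 31 genes from top to bottom in the order of their roles (grey lines part the roles), with 95% intervals from limma. Points lie between -1.16 for Pnpla3 and 0.54 for Elovl6; the intervals of Elovl5, Fads2, Pnpla3 and Lipc do not include 0, and none of the 31 genes passed the threshold after adjustment.

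Among the regulators, Srebf1 had signals of 5.07 to 6.26 (median 5.46) in fipronil rats and 5.15 to 5.74 (median 5.46) in vehicle rats. The medians of the groups were nearly equal, and the highest and the lowest rat of all 15 were both fipronil rats. The difference was 0.09 (95% interval -0.26 to 0.45), and a second Srebf1 probe gave 0.08. Mlxipl differed by -0.19 (-0.49 to 0.11).

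For the supply of carbon, Pklr, the liver pyruvate kinase and a classical ChREBP target, differed by -0.06 (95% interval -0.58 to 0.45). Slc25a1, the citrate carrier of the mitochondrial membrane, differed by -0.07 (-0.30 to 0.15) and Acss2, which makes acetyl-CoA from acetate, by 0.08 (-0.27 to 0.43). Acly, ATP citrate lyase, had signals of 7.89 to 8.49 (median 8.19) in 6 fipronil rats and 8.08 to 8.93 (median 8.39) in 6 vehicle rats, after outlier spots on 3 arrays were left out. Its probe was saturated on 4 of these 6 fipronil arrays and 2 of these 6 vehicle arrays, so the difference of -0.24 (SE 0.16, limma adjusted p = 0.455) rests in part on spots at the upper limit of the scan. With saturated spots left out it was -0.34 (adjusted p = 0.564), with brightness as a covariate 0.06 and without slide 4 -0.02, so its sign was not settled.

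None of the 3 chain-building enzymes passed the test. Fasn, fatty acid synthase, had signals of 6.70 to 7.99 (median 7.25) in fipronil rats and 6.93 to 8.33 (median 7.57) in vehicle rats. The difference was -0.31 (SE 0.23, limma adjusted p = 0.513), and the second probe gave -0.23. The Fasn probe was saturated on 1 vehicle array, that of vehicle rat 3, which had the highest signal, and without that spot the difference was -0.19. Within slides the Fasn difference was -0.31, -0.03, 0.57 and -1.13 on slides 1 to 4, so its sign was not the same throughout, and without slide 4 it was -0.02. Acaca, the acetyl-CoA carboxylase that commits carbon to fatty acids, differed by -0.15 (95% interval -0.53 to 0.23). Its slide values were -0.11, 0.22, 0.27 and -0.77, and the sign turned without slide 4 (0.08) and with array brightness as a covariate (0.02). Acacb, the isoform at the mitochondrion that limits fatty acid oxidation, differed by -0.13 (-0.41 to 0.14).

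The 4 elongases had differences of both signs, none past the threshold. Elovl5, which lengthens polyunsaturated chains, had signals of -1.78 to -0.93 (median -1.43) in fipronil rats and -1.20 to -0.65 (median -0.94) in vehicle rats. All 8 fipronil rats lay below the vehicle mean, and the groups overlapped because fipronil rats 2 and 5 lay within the vehicle range. The difference was -0.49 (SE 0.13, limma adjusted p = 0.0791), or 0.711 of the vehicle level with a 95% interval of 0.589 to 0.859. It was below 0 on each of the 4 slides, at -0.15, -0.80, -0.48 and -0.62. Without fipronil rat 5, the highest of its group, the limma adjusted p was 0.0384, so the side of the threshold depended on this 1 rat. In that fit 230 of all features passed, against 175 with all rats. The size depended on the background correction, at -0.27 with normexp under either scaling and -0.28 in the deposited log2 table, and over the 36 alternatives it was -0.62 to -0.27. The Elovl5 probe lies at chr8:82942431-82942490 of build rn4.

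Elovl6, the elongase that takes palmitate to stearate, had signals of 3.97 to 5.67 (median 5.11) in fipronil rats and 3.61 to 5.20 (median 4.18) in vehicle rats. In the fipronil group 5 rats lay at 5.01 or above and 3 at 4.31 or below, and in the vehicle group 2 rats (3 and 7) stood above the other five. The difference was 0.54 (SE 0.30, limma adjusted p = 0.364), and a second, dimmer probe gave 0.19. On slides 1 to 3 it was 1.12, 0.72 and 1.31, and on slide 4 it was -0.61; without slide 1 the difference was 0.33 and without slide 4 it was 0.95. Elovl2, which makes very long polyunsaturated chains, had signals of 0.68 to 1.60 (median 0.72) in fipronil rats and 0.43 to 0.93 (median 0.66) in vehicle rats. Fipronil rats 2, 7 and 8 lay above all vehicle rats, and the difference was 0.23 (SE 0.14, limma adjusted p = 0.418), or 0.10 with brightness as a covariate. Elovl1, an elongase of saturated very long chains, differed by -0.15 (95% interval -0.37 to 0.06).

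Of the desaturases, Fads2, the delta-6 desaturase of polyunsaturated fatty acids, had signals of 2.90 to 3.34 (median 3.08) in fipronil rats and 2.86 to 3.73 (median 3.38) in vehicle rats. All 8 fipronil rats lay below the vehicle mean, and the lowest rat of all was a vehicle rat. The difference was -0.27 (SE 0.12, limma adjusted p = 0.257), with slide values of -0.34, 0.04, -0.80 and -0.18, and -0.16 without slide 3. Fads1, the delta-5 desaturase, differed by -0.12 (95% interval -0.40 to 0.16).

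Scd, the stearoyl-CoA desaturase that makes oleate, was among the most variable transcripts on the arrays. Its signal was 3.93 to 7.77 (median 6.03) in fipronil rats and 4.11 to 7.65 (median 6.65) in vehicle rats. Fipronil rat 5 and vehicle rats 2, 4 and 5 were low, and the range within each group spanned more than a log2 difference of 3. The SD within groups was 1.34, at or above that of 99.6% of tested features, and the difference was 0.13 (95% interval -1.19 to 1.46).

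Scd2, a second stearoyl-CoA desaturase, was the 1 gene among the 11 with several tested probes whose probes differed by over 0.5. The 3 probes lie within the same gene on rn4, at chr1:249365537-249365596, chr1:249370837-249370896 and chr1:249369161-249369220. The first is the brightest by a narrow margin, with a mean log2 intensity of 10.03 against 10.02 for the second, and it stands for Scd2 in the counts above. Its signal was 0.90 to 3.75 (median 2.50) in fipronil rats and 1.01 to 3.94 (median 3.02) in vehicle rats, and the difference was 0.04 (SE 0.51, limma adjusted p = 0.978). The second probe had signals of 1.95 to 4.54 (median 3.61) in fipronil rats and -0.82 to 3.64 (median 0.50) in vehicle rats. Vehicle rats 4 and 5 reached the fipronil range and the other five vehicle rats lay below all fipronil rats. Its difference was 2.16 (SE 0.63, adjusted p = 0.116 in a limma fit of every probe). The third probe, the dimmest, gave 0.95 (SE 0.32, adjusted p = 0.156 in that fit). None of the 3 differences passed the threshold.

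The Scd2 probes also ranked the rats differently. Across the 15 rats, as deviations from the group means, the first Scd2 probe and the Scd probe had a correlation of 0.98. The remaining Scd2 probes had a correlation of 0.84 with each other, and of -0.29 (the second) and -0.41 (the dimmest) with Scd. These correlations are given as a description of probes that share their arrays. Probe sequences were not used here, so the transcripts that each probe binds were not compared.

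**Figure D2:**
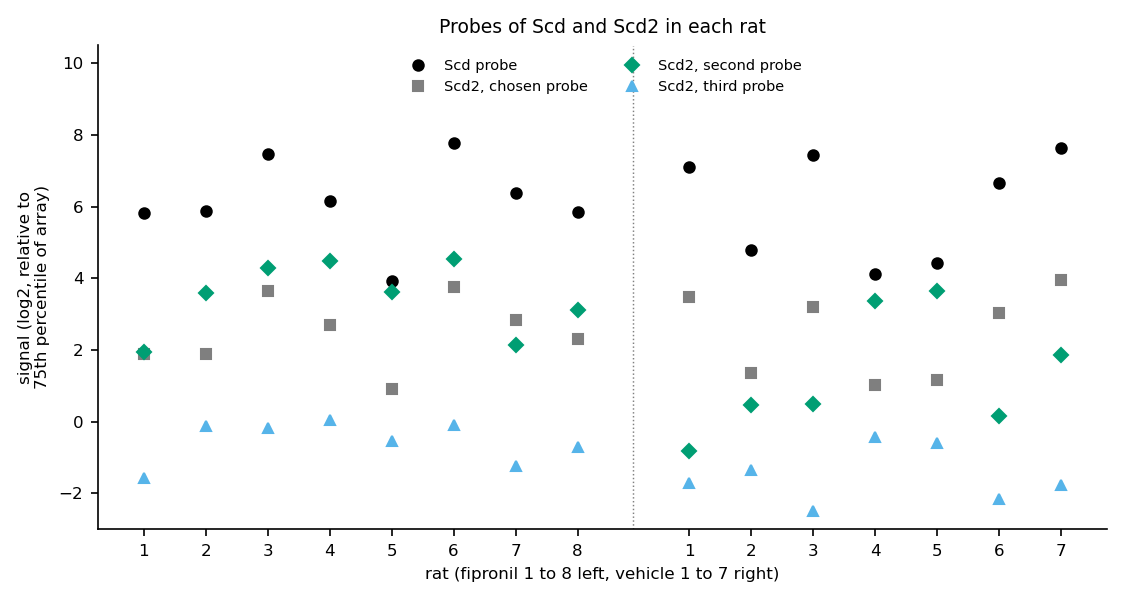
Signal (log2, relative to the 75th percentile of the array) of the Scd probe and of the 3 Scd2 probes in each rat, fipronil rats left and vehicle rats right. The Scd probe and the first (chosen) Scd2 probe are low in the same rats, fipronil 5 and vehicle 2, 4 and 5; the remaining Scd2 probes are not at their lowest in fipronil 5, and among vehicle rats they are highest in vehicle 4 and 5.

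Among the acyl-CoA synthetases, Acsl4, which prefers arachidonate, had signals of 5.20 to 5.62 (median 5.48) in fipronil rats and 5.43 to 5.83 (median 5.68) in vehicle rats. The difference was -0.18 (SE 0.09, limma adjusted p = 0.341), with 7 of 8 fipronil rats below the vehicle mean and values below 0 on each of the 4 slides. With brightness as a covariate it was -0.05. Acsl3 differed by -0.15 (95% interval -0.46 to 0.16) and Acsl5 by 0.08 (-0.16 to 0.32).

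No gene of glycerolipid assembly passed the test. Gpam, the mitochondrial acyltransferase of the first step, differed by -0.0031 (95% interval -0.36 to 0.35). Agpat2, of the second step, differed by 0.11 (-0.10 to 0.31). The phosphatidate phosphatases Lpin1 and Lpin2, which make diacylglycerol, differed by 0.32 (-0.19 to 0.82) and 0.19 (-0.15 to 0.53). Dgat2, which catalyses the last step of triglyceride synthesis, had signals of 7.30 to 7.85 (median 7.71) in fipronil rats and 7.62 to 8.45 (median 7.84) in vehicle rats. All 8 fipronil rats lay below the vehicle mean, which vehicle rat 7 raised, and the difference was -0.24 (SE 0.12, limma adjusted p = 0.329). With brightness as a covariate it was -0.13, and the other 2 Dgat2 probes gave -0.10 and -0.09. Mttp, which loads triglyceride onto nascent VLDL, differed by -0.03 (-0.28 to 0.22).

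In the group of lipolysis and remodelling, Pnpla3 had the largest estimated difference of the 31 genes by their chosen probes. Pnpla3 encodes a droplet-bound lipase and acyltransferase that is an SREBP-1c target in mouse and human liver cells. Its signals were 0.96 to 3.06 (median 1.87) in fipronil rats and 1.94 to 3.93 (median 3.33) in vehicle rats. Of the fipronil rats 7 of 8 lay below the vehicle mean, and 4 lay below every vehicle rat. The difference was -1.16 (SE 0.34, limma adjusted p = 0.113), or 0.449 of the vehicle level with a 95% interval of 0.272 to 0.740. It was below 0 on each slide, at -1.44, -0.34, -0.53 and -1.99. A second Pnpla3 probe, assigned by accession, gave -1.03 (adjusted p = 0.197 in the fit of every probe) and followed the first across rats with a correlation of 0.92. Over the 36 alternative settings the difference stayed between -1.44 and -0.83 and the adjusted p between 0.059 and 0.544. The Pnpla3 probe lies at chr7:122162823-122162882 of rn4.

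Lipc, the hepatic lipase that remodels circulating lipoproteins, had signals of 5.27 to 5.71 (median 5.50) in fipronil rats and 4.69 to 5.39 (median 5.27) in vehicle rats. All 8 fipronil rats lay above the vehicle mean, and vehicle rat 2 stood below the rest. The difference was 0.30 (SE 0.10, limma adjusted p = 0.167), above 0 on each of the 4 slides. Pnpla2, the adipose triglyceride lipase, differed by -0.18 (95% interval -0.54 to 0.17) and Mgll, the monoacylglycerol lipase, by 0.05 (-0.15 to 0.24).

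**Figure D3:**
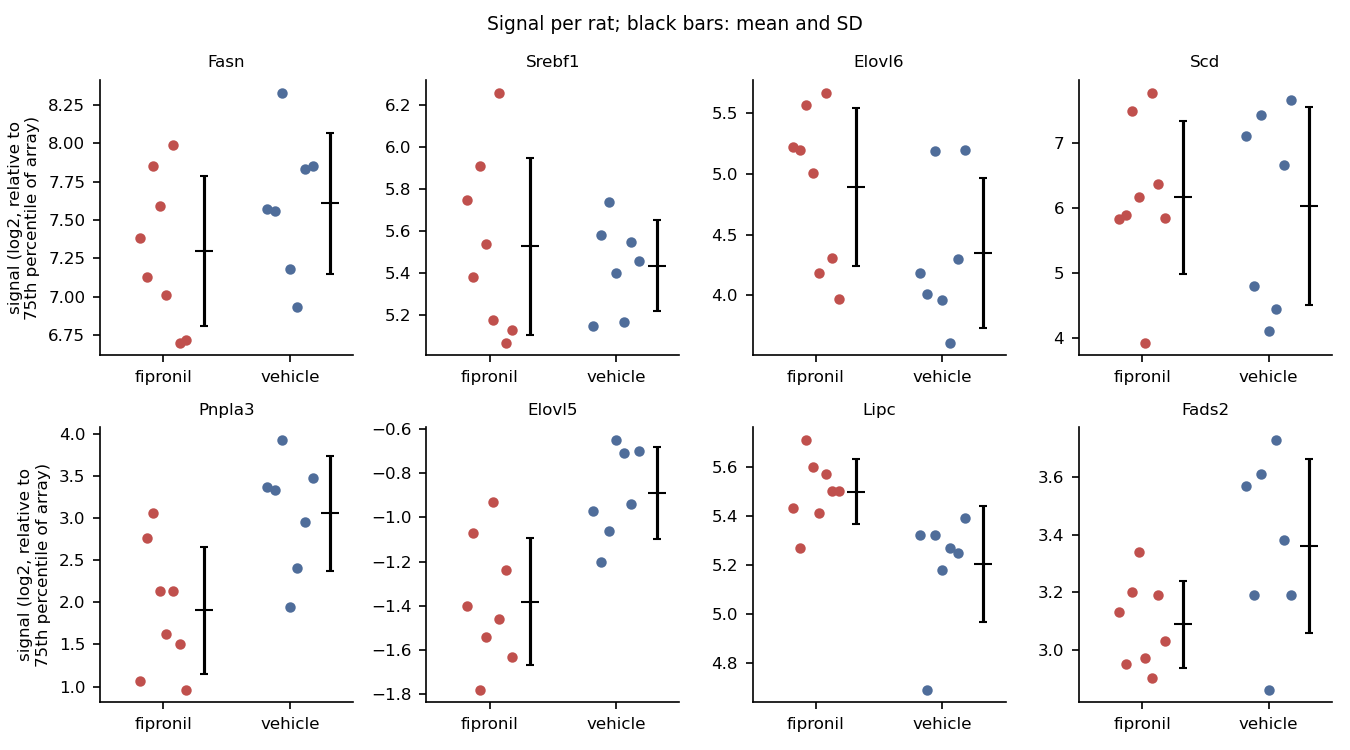
Signal (log2, relative to the 75th percentile of the array) in each fipronil rat (left, n = 8) and vehicle rat (right, n = 7) for 8 genes, with the group mean and SD in black. The groups overlap in every panel; Pnpla3, Elovl5 and Fads2 sit lower and Lipc sits higher in most fipronil rats, and Scd spans more than a log2 difference of 3 in both groups.

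Rats of the same group differed from each other in a shared way. Deviations from the group mean were correlated between Fasn or Srebf1 and every other gene, 59 pairs in all, with two-sided permutation within groups and adjustment over the 59 pairs. The deviations of Fasn rose with those of 9 of 30 genes at an adjusted p under 0.05, and none passed with the opposite sign. Elovl6 followed Fasn with r = 0.89 and rho = 0.88 (permutation adjusted p = 0.00502 and 0.00679, n = 15 rats). Srebf1 followed Fasn with r = 0.86 and rho = 0.83 (permutation adjusted p = 0.00354 and 0.00964), and Acaca with r = 0.81 and rho = 0.88 (0.00708 and 0.00679). The other six were Gpam (r = 0.79), Acsl5 (0.75), Scd (0.72), Lpin1 (0.72), Pnpla3 (0.70) and the first probe of Scd2 (0.67). That Scd2 probe had a correlation of 0.98 with the Scd probe. The remaining Scd2 probes, which did not follow it, were not compared with Fasn. Srebf1 also went with Elovl6 (r = 0.79), Gpam (0.67) and Acaca (0.64). All 12 pairs passed by rho as well.

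A correlation with Fasn above 0.6 was found in 10 of 30 genes (33.3%), and in 4.88% of the 20315 tested features other than Fasn. For Srebf1 it was 6 of 30 genes (20%), and 4.77% of the 20315 tested features other than Srebf1. Both sets of features include the 30 genes. The 12 pairs kept a positive r within the 8 fipronil rats (0.58 to 0.95) and within the 7 vehicle rats (0.46 to 0.88). With slide removed as well, r was 0.63 to 0.89, and with array brightness removed it was 0.63 to 0.89. Without the 2 rats farthest from the median of Fasn or of Srebf1, r was 0.60 to 0.84. Of the 12 pairs 4 then still passed, namely Fasn with Elovl6, Srebf1 and Acaca, and Srebf1 with Elovl6. The other eight did not pass over 13 rats, with r of 0.60 to 0.71 against 0.64 to 0.79 over all 15 rats.

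Not every gene of the pathway passed. Acly had r = 0.68 with Fasn over 12 rats (permutation adjusted p = 0.0707). It passed with slide removed (0.00655), with brightness removed (0.0101) and without the 2 farthest rats (0.0413). Fipronil rat 6 gave the only Acly value on slide 3, so it added nothing once slide was removed. With slide or brightness removed, residuals were shuffled within groups without allowance for the terms removed. Permutation p-values from those settings can be too small. Pklr had r = 0.59 (permutation adjusted p = 0.0839). It passed with slide removed (0.00655) and without the 2 farthest rats (0.046), but not with brightness removed (0.0973). Elovl5 (r = -0.47), Elovl2 (-0.40), Fads1 (-0.25) and Fads2 (0.10), the enzymes of polyunsaturated fatty acid synthesis, did not pass with Fasn. Pnpla2, the lipase that opens triglyceride breakdown, had r = -0.62 and rho = -0.65 with Fasn (permutation adjusted p = 0.0707 and 0.0541). With Srebf1 it had r = -0.61 and rho = -0.73 (permutation adjusted p = 0.0707 and 0.0228), the 1 pair of the 59 that passed by rho and not by r. Dgat1, Dgat2, Mttp and Mgll had r between -0.25 and 0.19.

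**Figure D4:**
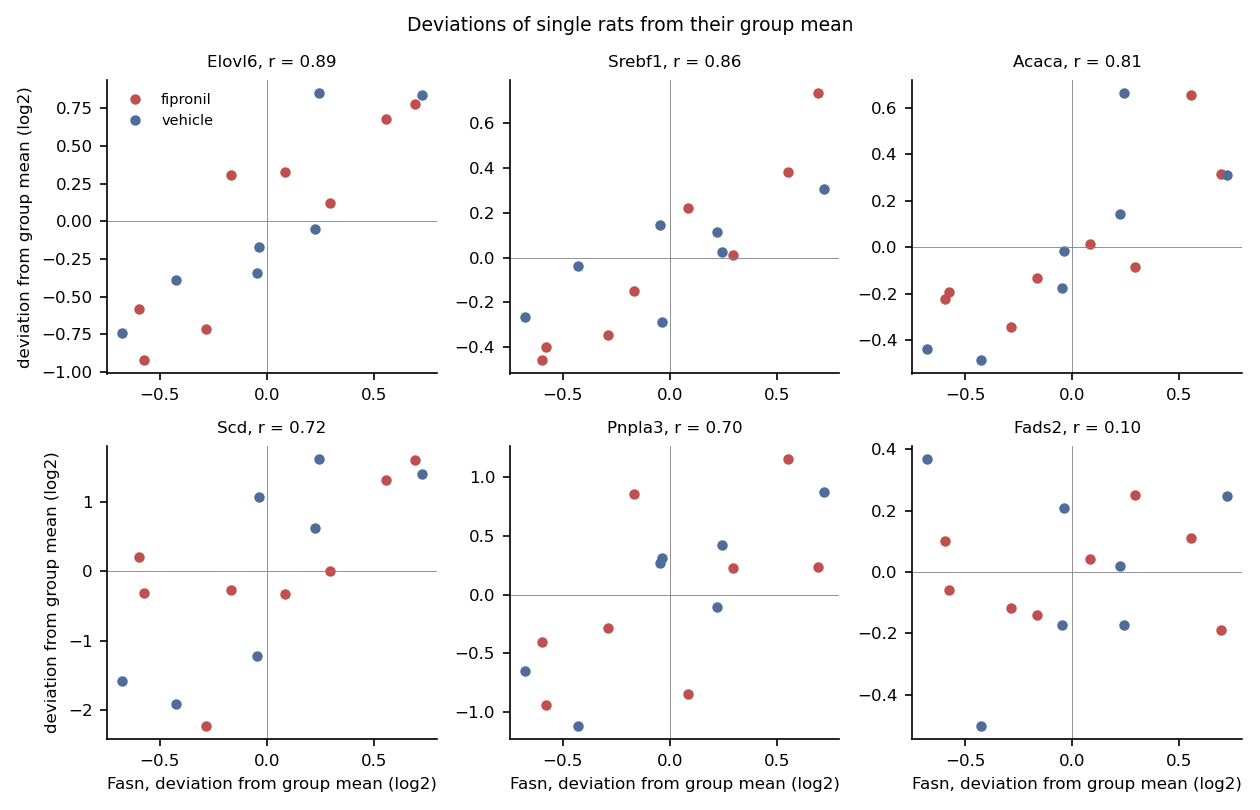
Deviation of each rat from its group mean (log2) for 6 genes on the vertical axis against Fasn on the horizontal axis, fipronil rats and vehicle rats in different colours. Elovl6, Srebf1 and Acaca lie along a rising line in both groups (r of 0.89, 0.86 and 0.81), Scd and Pnpla3 more loosely (0.72 and 0.70), and Fads2 does not (0.10).

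Promoters are shown for 4 of the genes that followed Fasn across rats, of which Scd2 did so by its first probe. The 4 promoters were picked because each carries the CCAAT box, the binding sequence of NF-Y, a factor that acts beside SREBP. They are the 250 bases before the transcription start in the RefSeq annotation of GRCr8, written 5′ to 3′ on the strand of the gene, with CCAAT or its complement ATTGG in capitals. Gpam lies at chr1:264175912-264176161 on the minus strand, Lpin1 at chr6:45108943-45109192 on the minus strand, Scd2 at chr1:253118127-253118376 on the plus strand and Pnpla3 at chr7:117173278-117173527 on the plus strand.
Gpam: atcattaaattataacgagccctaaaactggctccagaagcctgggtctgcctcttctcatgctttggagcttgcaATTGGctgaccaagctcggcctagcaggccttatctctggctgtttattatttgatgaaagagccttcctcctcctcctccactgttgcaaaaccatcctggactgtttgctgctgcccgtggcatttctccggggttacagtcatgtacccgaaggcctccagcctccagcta
Lpin1: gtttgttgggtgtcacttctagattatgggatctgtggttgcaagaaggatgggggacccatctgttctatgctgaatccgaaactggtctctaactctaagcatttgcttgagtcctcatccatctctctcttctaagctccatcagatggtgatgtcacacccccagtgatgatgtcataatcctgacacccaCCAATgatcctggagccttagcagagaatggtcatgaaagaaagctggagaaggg
Scd2: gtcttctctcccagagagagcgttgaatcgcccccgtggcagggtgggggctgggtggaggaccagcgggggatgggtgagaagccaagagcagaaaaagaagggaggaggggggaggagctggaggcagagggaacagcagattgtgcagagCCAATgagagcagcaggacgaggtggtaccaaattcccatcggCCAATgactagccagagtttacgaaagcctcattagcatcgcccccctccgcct
Pnpla3: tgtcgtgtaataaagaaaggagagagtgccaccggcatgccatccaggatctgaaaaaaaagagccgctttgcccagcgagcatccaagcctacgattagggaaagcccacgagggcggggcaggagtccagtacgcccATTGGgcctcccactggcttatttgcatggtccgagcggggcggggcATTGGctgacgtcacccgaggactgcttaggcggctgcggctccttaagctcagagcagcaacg

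RefSeq promoters were matched for 25 of the 31 genes, and Fasn, Acaca, Elovl6, Dgat1, Dgat2 and Mttp were not matched. Windows of 250 bases before to 50 after the start were searched on both strands. A gene was counted where any of its windows held the sequence, and the percentages are of single windows. A gene with several windows had more chances of a match, so gene counts and percentages are not like measures. CCAAT was present in 15 of the 25 genes, and 37.5% of all 33469 promoters held it. Among the 7 of these genes that followed Fasn, 5 had it, and Scd and Acsl5 did not. The sterol response element written as TCACNCCAC was in none of the 25 genes and in 1.12% of all promoters. The E-box CACGTG was in Elovl5 and Mgll, against 6.42% of all promoters, and GGGCGG, the GC box, was in 13 genes, against 33.1%. The carbohydrate response element, written as CACGNG and CNCGTG with 5 bases between them, holds the E-box where an open position supplies its letter. It was found in Pklr alone of the 25, against 0.0329% of all promoters. A match describes the letters of these windows and no match says nothing of a factor's binding.

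Beyond the 31 genes, 61 other genes of the pathway were listed, of which 53 were found and 45 tested. Insig2 was the 1 that passed the threshold, against 0.861% of all features. Insig2 encodes an anchor of the endoplasmic reticulum that holds back SREBP when sterols are plentiful. It had signals of 4.44 to 5.16 (median 4.75) in fipronil rats and 3.42 to 4.26 (median 4.03) in vehicle rats. Every fipronil rat was above every vehicle rat. Insig2 rose by 0.80 (SE 0.14, limma adjusted p = 0.00905), or 1.74-fold with a 95% interval of 1.42 to 2.12, and a second probe gave a mean difference of 0.96. It was higher on each slide, at 0.73, 0.58, 0.61 and 1.25. With array brightness as a covariate the difference was 0.77 and the adjusted p 0.110, with normexp background correction 0.79 and 0.113, and without slide 1 0.82 and 0.118.

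No other related gene passed. Cidea, a lipid droplet protein, had signals of 2.21 to 3.28 in fipronil rats and 1.61 to 2.77 in vehicle rats, a difference of 0.74 (SE 0.20, limma adjusted p = 0.0857). Agpat5, an acyltransferase of the second glycerolipid step, was well above background on 8 fipronil arrays and 4 of 7 vehicle arrays and so met the filter through the fipronil arrays. Its mean signal was -3.03 in fipronil rats and -3.59 in vehicle rats (limma adjusted p = 0.131), with part of the vehicle values at background. For both genes every fipronil rat lay above the vehicle mean, and the groups overlapped. Of the 45 tested genes, 4 were higher and 7 lower at an unadjusted p under 0.05, against 6.16% and 11.3% of all features. Of the 7 lower ones, Tkt, Acsl1, G0s2, Apob and Fabp1 were saturated on 11 to 15 of the 15 arrays, so their values on these arrays are only bounds. The remaining lower ones, Cd36 (-0.78) and Fitm2 (-0.45), were saturated on no array, and none of the 4 higher ones was saturated. The arrays of fipronil rats were also the brighter ones, and the part of saturation and brightness in these counts was not tested. The median difference of the 45 genes was -0.04, against -0.03 over all features.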

How the data were processed

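Cy3-labelled liver RNA of 15 rats was hybridised to 1 array each, per the labels. The deposited files hold spot intensity from Agilent Feature Extraction 9.5.3.1, background subtracted and detrended but not scaled between arrays, with other values being 0 or 1 flags, per the file headers. A deposited table of log2 values for 22244 probes, made with limma per the submitters' processing notes, served as an alternative. Outlier spots were left out, and log2 intensity was set relative to the 75th percentile of non-control probes per array. Gene names came from RefSeq GRCr8. Features that stood well above background on 7 or more arrays and had 12 or more values were tested with limma 3.58.1 (lmFit, eBayes, two-sided, R 4.3.3) after checks on simulated data, with Benjamini-Hochberg adjustment. The number of arrays limits precision. Full values are given for the 8 genes with the smallest p, saturated genes, genes whose probes differ by over 0.5, and the related genes with the 4 smallest p, of which 1 is not reported here. Srebf1 and Scd were added after their values were seen. The genes and lists were chosen with earlier results of these data known. Each rat is labelled as a separate animal. Alternatives covered background, scaling, filters, probes, saturation, slide, brightness, weights and rats left out.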

Additional observations from a re-analysis of the deposited data

Results flagged for a closer look

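In 1 of the 62 gene and group sets checked, 1 rat stood far from the others. The Lipc signal of vehicle rat 2 was 4.69, the lowest of the 7 vehicle rats, with the nearest rat at 5.18, and the gap was 0.692 of the range of the group. The limit used for such a gap is one that chance alone passes in about 1 of 20 groups. Without vehicle rat 2 the Lipc difference was 0.21, against 0.30 with all rats, and it did not pass the threshold in either fit.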

How the results depend on the processing

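Across the 35 other ways of processing (34 for Acly, which the filter on all 15 arrays leaves out), no gene of the 31 passed the threshold except Elovl5 without fipronil rat 5 (adjusted p = 0.0384 by limma), so the count was 0 to 1 when single rats were left out. With Fasn signal as a covariate, itself one of the genes and chosen after seeing the data, 2 of the other 30 genes passed, beside 222 of 20315 features. The median difference of the genes was -0.12 to -0.04 without single rats and -0.15 to 0.00071 otherwise. The number of features that passed, 175, was 57 with normexp and 75th percentile scaling, 85 with no filter, 39 with brightness as a covariate, 33 without slide 1, 49 without slide 4, and 86 to 285 without single rats. It moved by over 1.5 times without fipronil rat 1 (114), 7 (110) or 8 (86) and without vehicle rat 1 (103), 2 (90), 3 (285) or 7 (95). The replicate block, over numbers 1 to 7, gave 90 features, 0 of the 31 genes and 1 related gene. Correlations of same-numbered rats were -0.05 to 0.37 with 4 of the 7 not over 0.1, so the numbers were not taken to pair the rats, although 6 of the 7 same-numbered rats shared a slide. Of the related genes 0 passed with normexp and 75th percentile scaling, with brightness as a covariate and without slide 1. The number was 2 with normexp and quantile normalization, quantile normalization, the percentile over bright probes, median scaling, the deposited table, the filter on all 15 arrays, slide as a block and without slide 3. It was 3 with array weights and 1 to 3 without single rats. The 12 pairs across rats were 18 with slide removed, 14 with brightness removed and 6 without the 2 farthest rats, which also leaves fewer rats. The counts with slide or brightness removed rest on p-values that can be too small, because the terms removed were not allowed for. The cause of the other changes was not tested. Saturation limits Acly, and dim signal limits Mogat1.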

Other observations

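Because Fasn varied between rats of one group, the fit was repeated with Fasn signal as a covariate, a choice made after seeing the data. Elovl6 then differed by 0.91 (SE 0.16, limma adjusted p = 0.0129), against 0.54 (SE 0.30, adjusted p = 0.364) without the covariate. Elovl5 differed by -0.57 (adjusted p = 0.0452), against -0.49 (adjusted p = 0.0791). Srebf1 differed by 0.29 (adjusted p = 0.187) and Pnpla3 by -0.83, and neither passed the threshold. Fasn itself differed by -0.31 between the groups without passing the test, and a covariate that shares its variation with the genes tested changes both the estimate and its error.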
